A study of Mus musculus with 12 samples.

Results

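The genes described here encode the subunits of the oxidative phosphorylation system, 94 of the 55385 genes in a hippocampal RNA-seq count table. They are the protein-coding genes whose symbols mark them as subunits of complexes I to V (Ndufa, Ndufb, Ndufc, Ndufs and Ndufv without the Ndufaf assembly factors, Sdha to Sdhd, Uqcr, Cox4 to Cox8, Atp5, and the mitochondrially encoded mt-Nd, mt-Co, mt-Cytb and mt-Atp) and that exceeded 1 CPM, that is 1 count in every 1000000 counts of a library, in at least 3 of 12 libraries. Of the 94, 83 are nuclear (38 in complex I, 4 in complex II, 8 in complex III, 16 in complex IV and 17 in complex V) and 11 are encoded by mitochondrial DNA. Complexes were assigned by symbol prefix alone, so Ndufa4 and Ndufa4l2 are counted in complex I and Atp5s in complex V. Just inside the limit lay mt-Atp8, over 1 CPM in 3 libraries with 77 reads in all. Just outside it lay mt-Nd4l, over 1 CPM in 2 libraries with 65 reads, mt-Nd3 with 36 reads and Cox7b2 with 30 reads, while Cox8c and a further Atp5o identifier had 0 reads.

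The libraries came from total RNA of mouse hippocampus in 4 genotypes of 3 libraries each. The Kcnip3 KO-5xFAD group carries both alleles, the 5xFAD group carries the familial Alzheimer transgenes with intact Kcnip3, the Kcnip3 KO group lacks Kcnip3 without the transgenes, and the WT group carries neither. The 5xFAD transgenes carry familial Alzheimer mutations and are driven by Thy1 sequences in neurons. Kcnip3 encodes DREAM, also called calsenilin or KChIP3, a calcium-binding protein known as a transcriptional repressor and as a partner of potassium channels. The labels give no age or sex and leave unsaid if each library is its own animal, so p-values measure the spread between libraries, which may be technical.

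Oxidative phosphorylation couples the transfer of electrons to the making of ATP in the mitochondrial inner membrane. Complex I takes electrons from NADH and complex II from succinate, complex III passes them from ubiquinol to cytochrome c, complex IV hands them to oxygen, and complex V, the ATP synthase, uses the resulting proton gradient. Complexes I, III, IV and V are built from subunits of both genomes, so mitochondrial and nuclear transcripts must meet in one assembly, whereas complex II is wholly nuclear. Neurons rely heavily on this pathway to pay for ion pumping and synaptic transmission.

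Libraries held 7664407 to 11310714 counts, so 3 counts corresponded to 0.265 to 0.391 CPM, and this limit covers counting error only. Kcnip3 itself had 71.4, 63.4 and 125 CPM in Kcnip3 KO libraries and 84.9, 68.7 and 70.1 CPM in Kcnip3 KO-5xFAD libraries. The 6 libraries with an intact gene had 138 to 162 CPM, and Kcnip3 KO 3 lay closest to them. Which exons the allele lacks is not given in the sources used here. Thy1 had 3381, 926 and 2592 CPM in the Kcnip3 KO-5xFAD libraries, 2870, 4236 and 2950 CPM in the 5xFAD libraries and 747, 887 and 2277 CPM in the WT libraries. The libraries labelled Kcnip3 KO-5xFAD 2 and WT 3 thus went against their labels for Thy1. The counts of members called and the nuclear and mitochondrial medians are given with and without them. Most values of single genes, and the counts of genes without overlap, are given with all 12 libraries only. Summed markers of hippocampal neurons lay between 1559 and 2693 CPM in every library. Markers of the choroid plexus, a tissue bordering the hippocampus, summed to 103 to 408 CPM in WT 3, 5xFAD 2, Kcnip3 KO-5xFAD 1 and Kcnip3 KO-5xFAD 2, and to 3024 to 9021 CPM in the other libraries.

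Mitochondrial DNA encodes 13 of the subunits. Except for mt-Atp8, their read counts fell into 2 ranges that followed the presence of an annotated nuclear copy. Of the 13 genes, 5 (mt-Co2, mt-Atp6, mt-Co3, mt-Nd3 and mt-Nd4l) have an annotated nuclear pseudogene that matches over 95% of their length at over 99% identity, and their mean levels were 0.948 to 68.5 CPM per 1000 bases. Leaving aside mt-Atp8, the 7 genes without such a copy had mean levels of 1199 to 8938 CPM per 1000 bases, among them mt-Nd4, whose identical copy covers 63.6% of it. Copies of mt-Nd4 (in part), mt-Nd4l, mt-Nd3, mt-Co3, mt-Atp6 and mt-Co2 lie side by side in a 4031-base stretch of chromosome 1 (GRCm38, chr1:24611535-24615565). The level of mt-Atp8 was 3.51 CPM per 1000 bases, in the low range, though its closest annotated pseudogene matched at only 81.4%. In that stretch of chromosome 1, 233 bases of unannotated sequence separate the copies of mt-Atp6 and mt-Co2. Between these genes the mitochondrial genome has 230 bases that include most of mt-Atp8. The unannotated sequence was not compared with mt-Atp8. How reads matching several places were counted is not given in the sources used here, so the values of mt-Co2, mt-Atp6, mt-Co3, mt-Atp8, mt-Nd3 and mt-Nd4l are uncertain. The same doubt applies to the 63.6% of mt-Nd4 that has an identical copy. The first pair of 60-base stretches below shows mt-Co2 (chrM:7323-7382) and its copy Gm28661 (chr1:24615196-24615255, minus strand), which are identical. The second pair shows mt-Co1 (chrM:5787-5846) and Gm13340 (chr2:22589129-22589188, minus strand), with the 4 mismatched bases of each in capitals. Sequences are from GENCODE M21 transcripts on GRCm38.
mt-Co2: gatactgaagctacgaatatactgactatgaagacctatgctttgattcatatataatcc
Gm28661: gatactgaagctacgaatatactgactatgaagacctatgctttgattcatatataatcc
mt-Co1: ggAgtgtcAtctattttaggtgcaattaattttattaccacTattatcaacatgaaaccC
Gm13340: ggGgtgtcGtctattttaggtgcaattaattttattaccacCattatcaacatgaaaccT

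The mt-Co1 copy aligned over all 1545 bases of the gene at 97.6% identity, with 37 mismatches and at most 148 identical bases in a row. It drew a mean of 8.72 CPM, against 13810 CPM for mt-Co1 itself. Gm28661 drew a mean of 16.2 CPM, against 46.9 CPM for mt-Co2. Gm28437, the copy of mt-Co3, drew 12.7 CPM against 10.1 CPM for the mitochondrial gene, and Gm10925, the copy of mt-Atp6, drew 8.94 CPM against 5.38 CPM. For these last genes the pseudogene therefore held more counts than the gene.

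**Figure D1:**
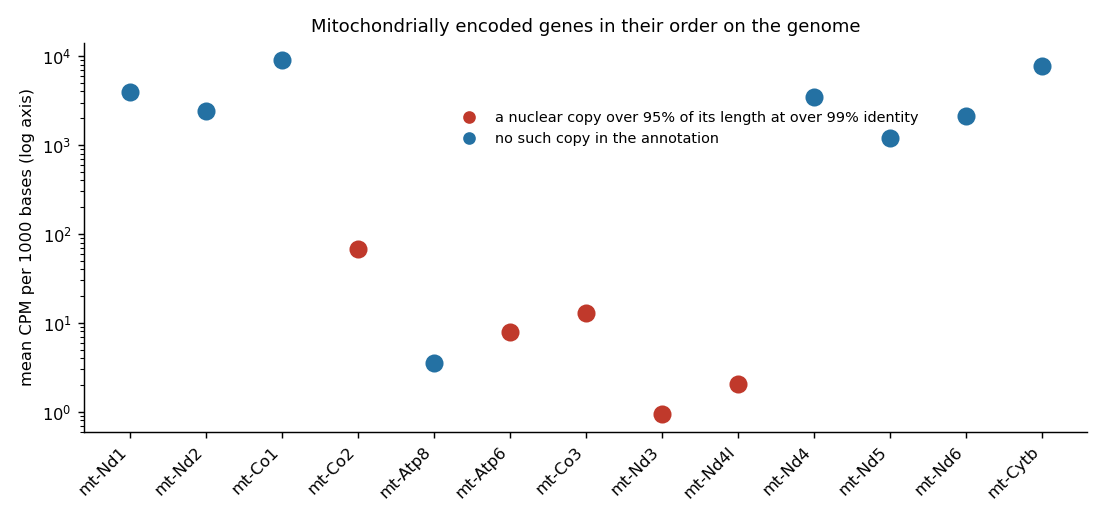
Mean level of the 13 mitochondrially encoded genes over the 12 libraries, in CPM per 1000 bases on a log axis, in their order on the mitochondrial genome. The 5 genes in red, with a near-identical nuclear copy, lie at 0.948 to 68.5, and the 7 genes in blue other than mt-Atp8 lie at 1199 to 8938. Also in blue, mt-Atp8 lies at 3.51.

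Among the mitochondrial genes without a full-length near-identical copy, levels per length spanned nearly an order of magnitude. On the TPM scale, which corrects for transcript length, and averaged over the 12 libraries, mt-Co1, the catalytic core of complex IV, had 29161 TPM and mt-Cytb, the cytochrome b of complex III, had 25167 TPM. The complex I subunits followed with 12803 TPM for mt-Nd1, 11145 for mt-Nd4, 7795 for mt-Nd2, 6965 for mt-Nd6 and 3914 for mt-Nd5. Of these, mt-Nd6 lies on the minus strand and overlaps the end of mt-Nd5. As the strand setting is not stated, its counts may include antisense reads. The nuclear members were lower, the highest being Cox8a, a small complex IV subunit, at 3774 TPM.

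Complex IV holds subunits that exist in alternative forms. In the Cox4i, Cox6a, Cox6b and Cox8 pairs a single form carried nearly all of the transcript. Cox4i1 averaged 1440.3 TPM, against 11.6 TPM for Cox4i2, a form known from lung and from cells of the vessel wall. Cox6a1, the widespread form, averaged 1734 TPM and its heart and muscle form Cox6a2 averaged 35.9 TPM. Cox6b1 had 1274 TPM beside 18.2 TPM for Cox6b2, a form known from testis. Cox7a2 and Cox7a2l, which promotes the joining of complexes III and IV into supercomplexes, had 834 and 381 TPM, while the muscle form Cox7a1 had 17.8 TPM. Cox8a had 3774 TPM and Cox8b, a form of heart, muscle and brown fat, had 19.4 TPM. Cox5a (253 TPM) and Cox5b (597 TPM) are distinct subunits, not alternatives. The ATP synthase c-ring is encoded by 3 genes that give the same mature protein, and Atp5g3 led with 451 TPM, before Atp5g2 with 175 TPM and Atp5g1 with 131 TPM.

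Cox8b varied widely between libraries of one genotype. It had 0.444, 0.889 and 3.07 CPM in the Kcnip3 KO-5xFAD libraries, 3.81, 0.425 and 4.53 CPM in the 5xFAD libraries, 2.09, 1.09 and 1.96 CPM in the Kcnip3 KO libraries, and 1.38, 2.87 and 0.522 CPM in the WT libraries. The 4 libraries under 1 CPM were the 4 with the low choroid plexus sums given above, and the part of that tissue in the Cox8b values was not tested. Of the 6 skeletal and cardiac muscle markers, Ckm and Mb stayed under 1 CPM in every library, but Acta1, Myh7, Myh6 and Tnnt2 were above it in at least 1. The 6 summed to 32.8 to 55.0 CPM in Kcnip3 KO-5xFAD libraries, 41.2 to 57.4 CPM in 5xFAD libraries, 39.0 to 43.7 CPM in Kcnip3 KO libraries and 58.2 to 64.8 CPM in WT libraries, with WT above all others, and their part in the values of the muscle forms was not tested.

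In 5xFAD hippocampus compared with WT, the fold changes of the 2 genomes had mostly opposite signs. Most nuclear subunit genes had a positive fold change (77 of 83, median log2 fold change 0.32, against 0.014 over all 15905 genes tested), and most mitochondrially encoded ones had a negative one (8 of 10, median -0.27). Of the 93 members tested (mt-Atp8 was too low), 4 rose past an adjusted p of 0.05 in edgeR's quasi-likelihood test with Benjamini-Hochberg adjustment over all genes. These were Cox7a2l, Uqcr11, Atp5e and Ndufv3, set against 1.91% of all genes called higher and 3.53% called in either direction. No member was called lower, against 1.62% of all genes, although 2 mitochondrial members (mt-Nd5 and mt-Co1) were below an unadjusted p of 0.05. DESeq2 called both, among 764 genes it called lower. With limma on log2 TPM mt-Nd5 was among 158 genes called lower, and with limma-voom 0 members were among 271. In all, 45 nuclear members and 2 mitochondrial members had an unadjusted p under 0.05, where 25.3% of all genes did. Since this is whole tissue, fewer cells of a type and less RNA per cell cannot be told apart.

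The summed levels show the divergence by library. The 11 mitochondrial members took 2.96%, 2.98% and 2.95% of counts in 5xFAD libraries, against 4.18%, 3.21% and 3.77% in WT libraries. The 83 nuclear members took 1.65%, 2.02% and 1.80% in 5xFAD libraries, against 1.59%, 1.71% and 1.51% in WT libraries. For the mitochondrial share all 5xFAD libraries lay below all WT libraries, while for the nuclear share 5xFAD 1 lay below WT 2. The ratio of mitochondrial to nuclear counts was 1.79, 1.48 and 1.64 in 5xFAD libraries and 2.64, 1.88 and 2.502 in WT libraries, without overlap. After TMM scaling, which corrects library sizes for composition, the mitochondrial sums overlapped, at 29358 to 32410 CPM in 5xFAD libraries and 32065 to 40584 CPM in WT libraries.

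**Figure D2:**
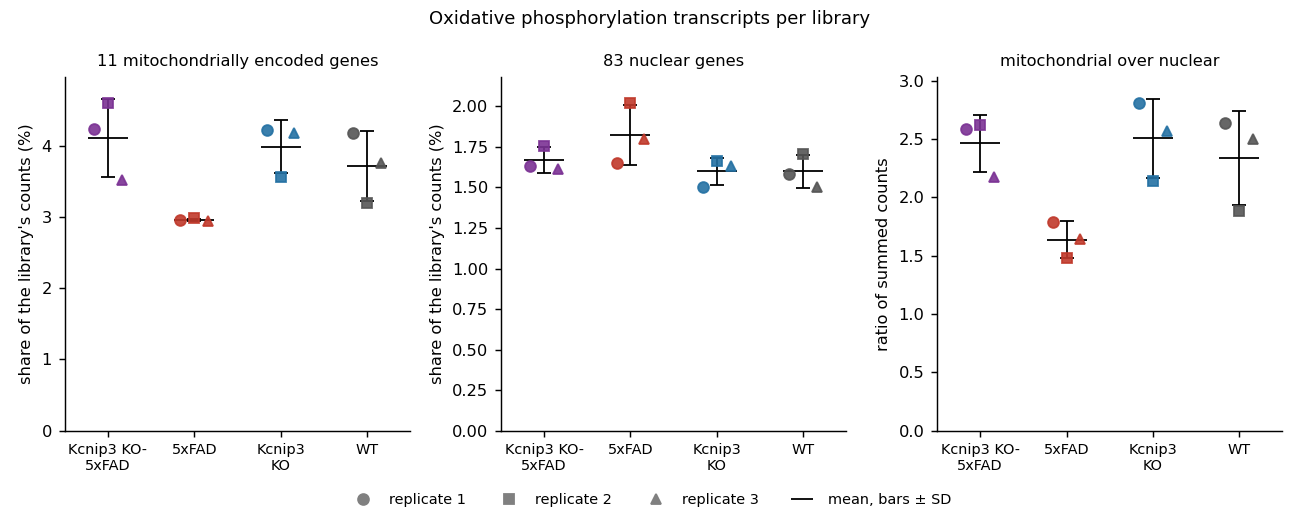
Share of each library's counts on the 11 mitochondrial members (left, %), on the 83 nuclear members (middle, %) and the ratio of the 2 sums (right), for the 4 genotypes, with each library as a point and the mean ± SD of 3 libraries. The 5xFAD ratios, 1.48 to 1.79, lie below those of all other libraries, 1.88 to 2.81.

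Cox7a2l (ENSMUSG00000024248, GRCm38 chr17:83501918-83517330, minus strand), the supercomplex factor of complex IV, had 186, 234 and 205 CPM in 5xFAD libraries, against 160.2, 167 and 151 CPM in WT libraries. Every 5xFAD library was higher than every WT library. The log2 fold change was 0.38 ± 0.09 (SE, adjusted p = 0.0431).

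Uqcr11 (ENSMUSG00000020163, chr10:80402997-80406830, minus strand), a small subunit of complex III, had 223, 328 and 254 CPM in 5xFAD libraries, against 176, 214 and 171 CPM in WT libraries. The groups did not overlap, though 5xFAD 1 and WT 2 lay close together. Its log2 fold change was 0.52 ± 0.13 (SE, adjusted p = 0.0460). Of the 83 nuclear members, 27 have a stretch that matches a transcript of another gene at 95% identity or more, so part of their counts is uncertain. Of the 4 called genes this holds for Cox7a2l (201 bases identical to the pseudogene Gm6969), Uqcr11 (122 bases at 98.4% identity with the pseudogene Gm16418) and Ndufv3 (parts of 10 other genes, the closest Fam208a over 140 bases).

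Atp5e (ENSMUSG00000016252, chr2:174461072-174464105, minus strand) encodes the epsilon subunit of the ATP synthase. It had 155, 229 and 177 CPM in 5xFAD libraries, against 129.6, 142 and 123 CPM in WT libraries. All 5xFAD libraries were again above all WT libraries, and 5xFAD 2 was the highest. The log2 fold change was 0.51 ± 0.13 (SE, adjusted p = 0.0472).

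Ndufv3 (ENSMUSG00000024038, chr17:31520115-31531331, plus strand), an accessory subunit of the NADH-oxidizing arm of complex I, had 94.1, 147 and 121 CPM in 5xFAD libraries, against 75.5, 97.3 and 70.1 CPM in WT libraries. Here the groups overlapped, because 5xFAD 1 lay below WT 2. The log2 fold change was 0.58 ± 0.15 (SE, adjusted p = 0.0493).

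None of the 4 calls held under every alternative. It took the removal of just 1 library (WT 1, WT 3, 5xFAD 2, 5xFAD 3, Kcnip3 KO 2, or the first or the third of Kcnip3 KO-5xFAD) to leave 0 members called higher, whereas without 5xFAD 1 there were 42. The calls over all genes moved too: from 304 higher of 15905, they fell to 1 without WT 1, 5xFAD 2 or 5xFAD 3 and to 12 without WT 3, were 143 to 273 without the other 3, and were 939 of 16197 without 5xFAD 1. Without Kcnip3 KO 3, 1 member (Cox7a2l) was called higher. Leaving out both libraries that went against their labels, WT 3 and Kcnip3 KO-5xFAD 2, also left 0 called, beside 196 of 16076 genes, with log2 fold changes of 0.35 for Cox7a2l, 0.46 for Uqcr11, 0.46 for Atp5e and 0.48 for Ndufv3, and adjusted p of 0.177 to 0.213.

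**Figure D3:**
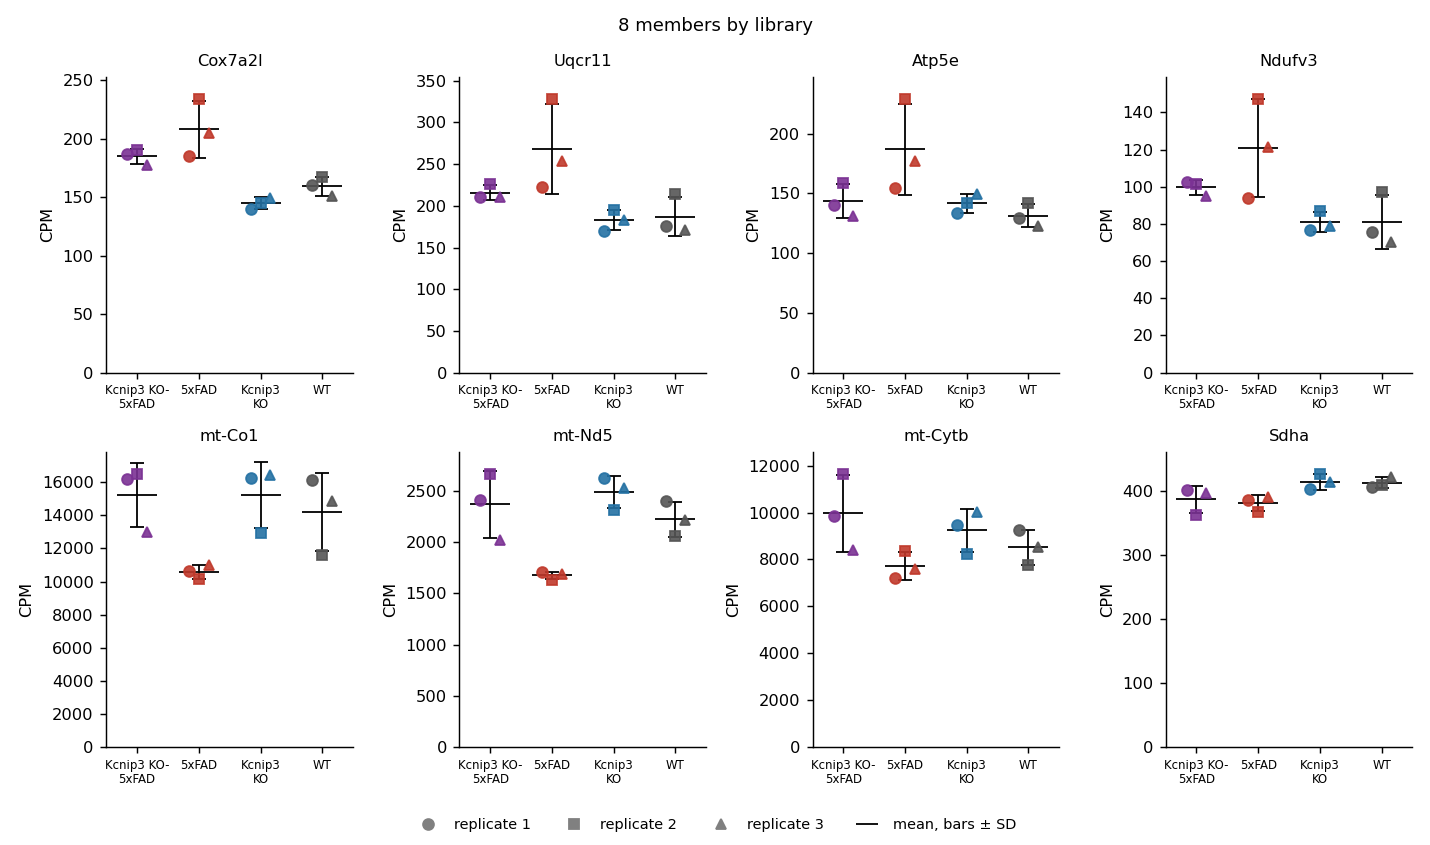
CPM of 8 members in each library of the 4 genotypes, with the mean ± SD of 3 libraries. For Cox7a2l, Uqcr11 and Atp5e the 5xFAD libraries lie above the WT libraries, for mt-Co1 and mt-Nd5 below them, and for mt-Cytb they overlap.

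The promoters of 2 of these genes show sequences known to be bound by factors of nuclear subunit genes: the Uqcr11 window (GRCm38.p6, chr10:80406772-80407071, minus strand) and the Atp5e window (chr2:174464052-174464351, minus strand) hold, in capitals, the ETS family motif CCGGAAG or its reverse complement, and that of Uqcr11 also the reverse complement of the NRF1 motif GCGCATGCG. Each window runs from 250 bases before to 50 bases after the annotated start, as given by RefSeq.
Uqcr11: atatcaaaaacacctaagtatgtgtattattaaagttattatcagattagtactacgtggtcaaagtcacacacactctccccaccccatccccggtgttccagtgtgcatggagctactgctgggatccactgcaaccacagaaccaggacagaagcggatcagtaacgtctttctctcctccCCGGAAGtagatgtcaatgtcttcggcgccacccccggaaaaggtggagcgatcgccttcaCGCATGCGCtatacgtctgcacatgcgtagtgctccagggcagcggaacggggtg
Atp5e: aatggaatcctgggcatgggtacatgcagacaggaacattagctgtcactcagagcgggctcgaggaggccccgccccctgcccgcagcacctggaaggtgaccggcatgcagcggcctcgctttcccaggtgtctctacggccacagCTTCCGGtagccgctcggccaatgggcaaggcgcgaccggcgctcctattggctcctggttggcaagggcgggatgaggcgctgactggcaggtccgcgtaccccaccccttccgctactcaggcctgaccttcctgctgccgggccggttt

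The windows of Cox7a2l (chr17:83514284-83514583, minus strand) and Ndufv3 (chr17:31519865-31520164, plus strand) held none of the 4 motifs searched on both strands. The Cox7a2l window lies within the gene span given above, so the GENCODE start upstream of it was not searched. Over the 71 windows of the 66 nuclear members matched to RefSeq (17 were not matched), CCGGAAG was present in 22.5%, against 8.86% of all 32851 windows. GCGCATGCG was present in 11.3% of the members' windows and 1.75% of all. The YY1 motif AAGATGGCG was present in 9.86% and 1.40%, and the ERR motif TGACCTTG in 5.63% and 1.56%. These are letter matches only, and 28 members had at least 1 of them.

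Within the nuclear members the complexes differed in how far their medians lay from 0. In complex I, 37 of 38 genes had a positive fold change, with a median log2 fold change of 0.32. Its exception was Ndufs1, the largest core subunit, with 113, 119 and 116 CPM in 5xFAD libraries against 129, 119.6 and 126 CPM in WT libraries. Ndufs1 was lower in every 5xFAD library, with a log2 fold change of -0.11 and an adjusted p of 0.436. In complex III, 7 of 8 had a positive fold change (median 0.22), the exception being the core protein gene Uqcrc2. In complex V, 14 of 17 had a positive fold change (median 0.24), and the exceptions were Atp5a1, Atp5f1 and Atp5s.

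Complex IV had the highest median, 0.43, and all 16 of its nuclear genes had a positive fold change. Cox6a1 had 383, 615 and 468 CPM in 5xFAD libraries, against 290.2, 398 and 279 CPM in WT libraries, a log2 fold change of 0.60 that missed the threshold (adjusted p = 0.0744). The groups overlapped through 5xFAD 1 and WT 2. Cox4i1 (0.47, adjusted p = 0.0666), Cox5b (0.52, adjusted p = 0.0596), Cox6b1 (0.50, adjusted p = 0.0662) and Cox7c (0.42, adjusted p = 0.0512) lay close to the threshold as well. The minor forms gave log2 fold changes of 0.35 for Cox4i2, 0.57 for Cox6a2, 0.39 for Cox6b2, 0.58 for Cox7a1 and 0.92 for Cox8b, with adjusted p of 0.181 to 0.597. Cox5a (0.20), Cox7a2 (0.33) and Cox8a (0.43) did not pass either. In complex V, Atp5g1 (0.45) and Atp5g2 (0.38) of the c-ring stood beside Atp5g3 at 0.07, again with none past the threshold.

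Complex II had the median closest to 0, 0.055 over its 4 genes. Sdha, the flavoprotein that oxidizes succinate, had 386, 367 and 389.8 CPM in 5xFAD libraries, against 406, 409 and 422 CPM in WT libraries. Each 5xFAD library lay below each WT library, with a log2 fold change of -0.11 ± 0.08 (SE, adjusted p = 0.393). Sdhc, a membrane anchor, had 114, 136 and 130.1 CPM in 5xFAD libraries against 105, 109 and 101 CPM in WT libraries, the opposite order without overlap (log2 fold change 0.27, adjusted p = 0.111). Sdhb (0.10) and Sdhd (0.01) overlapped.

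Over all nuclear members, 27 of 83 were higher in every 5xFAD library than in every WT library, where 13.7% of all genes tested were, and 2 (Ndufs1 and Sdha) were lower in every one, where 13.9% of all genes were. The excess of positive fold changes was not shared evenly by the libraries. The median deviation of nuclear members from their mean over the 12 libraries was -0.0061, 0.43 and 0.17 in 5xFAD libraries, against -0.11, 0.013 and -0.20 in WT libraries (log2). The summed hippocampal neuron markers were 2017, 2693 and 2093 CPM in 5xFAD libraries, against 1641, 1970 and 1582 CPM in WT libraries, without overlap and with 5xFAD 2 again the highest, and their part in this result was not tested. Without 5xFAD 2 the median log2 fold change was 0.17, with 67 of 83 positive, beside 0.32 with it. Without WT 3 and Kcnip3 KO-5xFAD 2 it was 0.24, with 77 of 83 positive.

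Transcript length moved with these values. Nuclear members are short, with a median annotated length of 1001 bases against 3273 bases over all genes tested. A per-library trend of counts over length and GC content, fitted on all genes, gave at the nuclear members a median of 0.052, 0.27 and 0.13 in 5xFAD libraries and of -0.085, -0.016 and -0.14 in WT libraries (log2). With that trend taken out, the nuclear median was 0.061 and 1 member, Cox7c, was called higher. The mitochondrial median was -0.18 in the same fit.

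**Figure D4:**
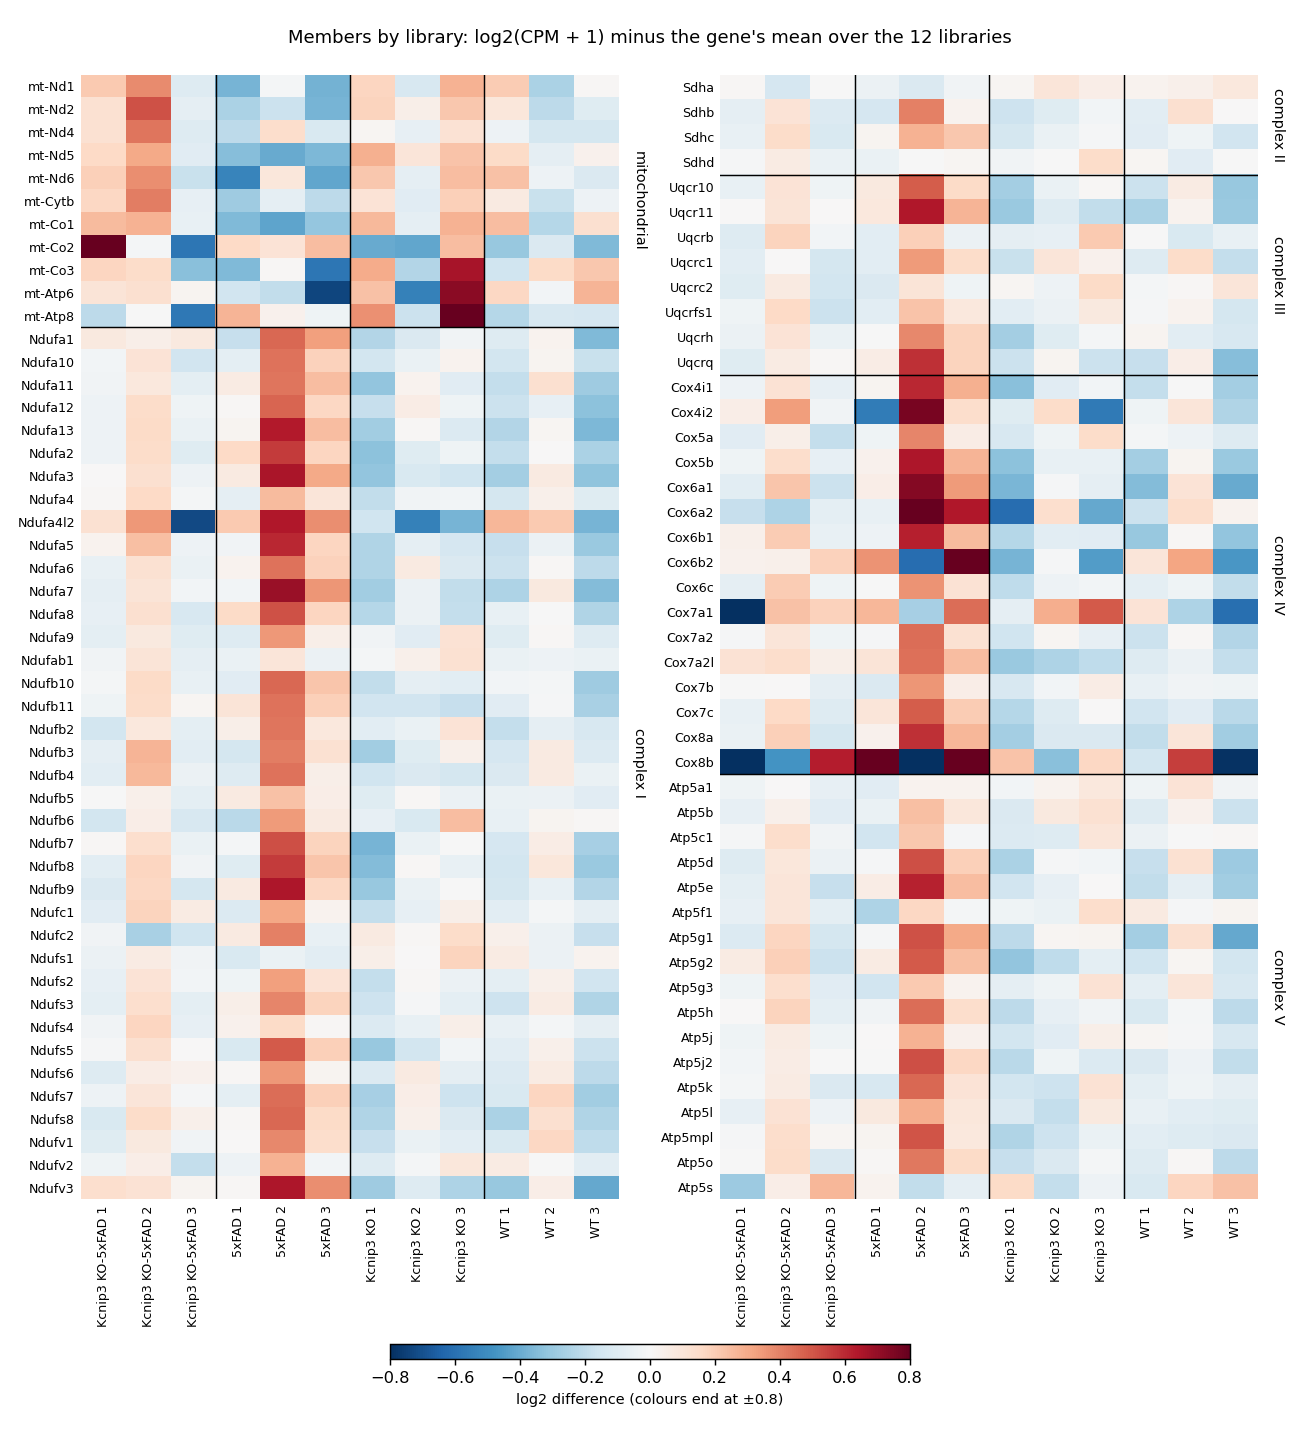
All 94 members (rows, by genome and complex) in the 12 libraries (columns), as log2(CPM + 1) minus the gene's mean over the libraries, with colours ending at ±0.8. The nuclear members are highest in 5xFAD 2, whose median deviation was 0.43, and the mitochondrial genes mt-Nd1, mt-Nd2, mt-Nd5 and mt-Co1 each have their lowest library among the 5xFAD ones.

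Of the mitochondrial genes, mt-Nd5 and mt-Co1 had the smallest p in 5xFAD against WT. mt-Nd5 (ENSMUSG00000064367, chrM:11742-13565), a proton-pumping subunit of complex I, had 1704, 1633 and 1684 CPM in 5xFAD libraries, against 2395, 2055 and 2210.0 CPM in WT libraries. The 5xFAD libraries lay close together and below all WT libraries, with a log2 fold change of -0.41 ± 0.11 (SE, adjusted p = 0.0600). mt-Co1 (ENSMUSG00000064351, chrM:5328-6872) had 10617, 10148 and 10971 CPM in 5xFAD libraries, against 16151, 11604 and 14838 CPM in WT libraries. Again no library overlapped, and the log2 fold change was -0.42 ± 0.15 (SE, adjusted p = 0.104).

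The remaining mitochondrial genes were less clear. mt-Nd1 (-0.24), mt-Nd2 (-0.20), mt-Nd6 (-0.29) and mt-Cytb (-0.14) had negative log2 fold changes with overlapping libraries and adjusted p of 0.310 to 0.537. mt-Nd4 stood at 0.05, and turned to -0.071 without 5xFAD 2. Of the genes with near-identical nuclear copies, mt-Atp6 was at -0.61 without overlap, mt-Co3 at -0.42 with overlap, and mt-Co2 at 0.44 with all 5xFAD libraries above all WT libraries. Over the 10 mitochondrial members, 3 were thus lower without overlap and 1 higher, beside the shares of 13.9% and 13.7% of all genes. With mt-Co2, mt-Co3 and mt-Atp6 left out, 6 of 7 had a negative fold change and the median was -0.24. The exception was mt-Nd4, which has an identical nuclear copy over most of its length. That copy, Gm28439, drew a mean of 1.8 CPM against 4724 CPM for mt-Nd4, and its part in this fold change was not tested. The 10 genes share one organelle genome and the same libraries, so they are not independent of each other. Without WT 3 and Kcnip3 KO-5xFAD 2 the mitochondrial median was -0.29.

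**Figure D5:**
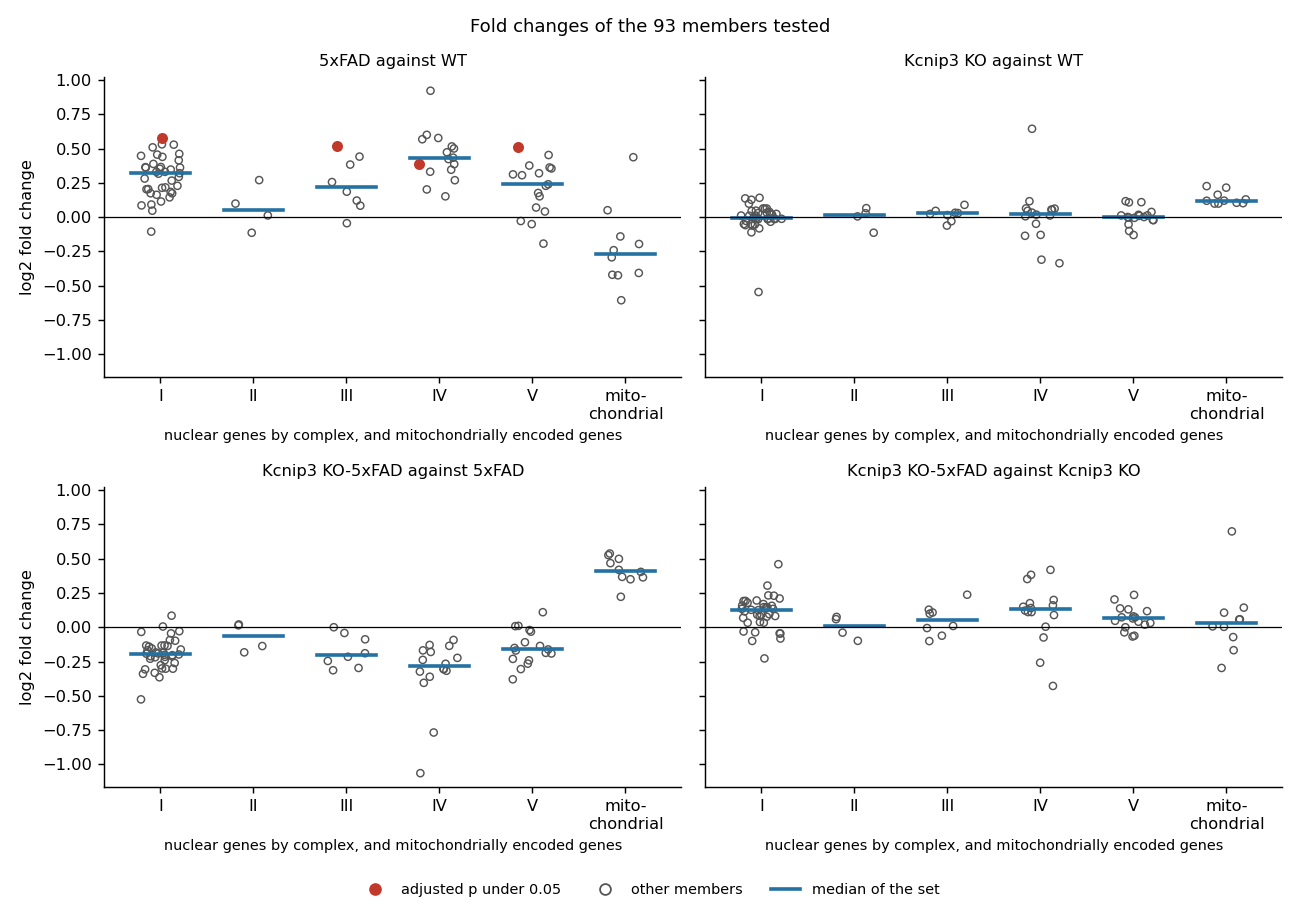
Log2 fold change of the 93 members tested in 4 comparisons, for the nuclear genes by complex and for the mitochondrially encoded genes, with the median of each set as a line and the 4 members past an adjusted p of 0.05 in red (horizontal scatter only separates points). In 5xFAD against WT the nuclear genes have a median of 0.32 and the mitochondrial ones of -0.27, and in Kcnip3 KO-5xFAD against 5xFAD the medians are -0.19 and 0.41.

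The Kcnip3 KO hippocampus without the transgenes showed no member past the threshold compared with WT. By edgeR 0 of 93 were called and 0 had an unadjusted p under 0.05, and DESeq2, limma-voom and limma on log2 TPM called 0 as well, beside 0.0503% of all genes called and 4.51% under that unadjusted p by edgeR. Nuclear fold changes were positive for 48 of 83 with a median of 0.011, and their sign depended on the libraries used. Without WT 3 and Kcnip3 KO-5xFAD 2 the nuclear median was -0.037 with 23 of 83 positive. Leaving out Kcnip3 KO 3 gave 29 positive, leaving out Kcnip3 KO 1 gave 68, leaving out WT 3, Kcnip3 KO-5xFAD 2 and Kcnip3 KO 3 together gave 14, and taking out the length and GC trend gave 64. All 10 mitochondrial genes had positive fold changes, 0.10 for mt-Co1 to 0.23 for mt-Co3, with a median of 0.12, and of 0.13 without WT 3 and Kcnip3 KO-5xFAD 2. That median was 0.042 with 7 of 10 positive without Kcnip3 KO 3, 0.22 without Kcnip3 KO 2, 0.19 without WT 1 and 0.22 with the length and GC trend taken out. mt-Nd5 had 2624, 2310.4 and 2525 CPM in Kcnip3 KO libraries, against 2395, 2055 and 2210.0 CPM in WT libraries, and these overlapped. The extremes were members of low count, Cox7a1 at 0.64 ± 0.41 (SE) and Ndufa4l2, a paralog of Ndufa4 known from pericytes, at -0.55 ± 0.35 (SE). Cox7a2l had 140.0, 145 and 149.7 CPM in Kcnip3 KO libraries, all below the WT libraries given above, with a log2 fold change of -0.14 ± 0.09 (SE, adjusted p = 0.999). It was 1 of 2 nuclear members lower without overlap, and 1 was higher, of 83. The share over all genes was not computed for this comparison.

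Within the transgene background, Kcnip3 KO-5xFAD hippocampus compared with 5xFAD showed the opposite pair of medians to 5xFAD against WT. The mitochondrial genes had positive fold changes in 10 of 10 cases (median 0.41) and the nuclear ones negative in 75 of 83 (median -0.19). Both comparisons use the same 5xFAD libraries, so their opposite signs are not independent. No member was called by edgeR, beside 0.0692% of all genes, while 21 members had an unadjusted p under 0.05, where 10.4% of all genes did. Of these, 15 were nuclear and lower, beside 3.92% of all genes, and 6 mitochondrial and higher, beside 6.44%. DESeq2 called 1, mt-Nd5, among 16 genes it called higher, and limma-voom and limma on log2 TPM called 0.

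mt-Nd5 had 2411, 2664 and 2021 CPM in Kcnip3 KO-5xFAD libraries, against 1704, 1633 and 1684 CPM in 5xFAD libraries. Every Kcnip3 KO-5xFAD library was higher, with a log2 fold change of 0.50 ± 0.11 (SE, unadjusted p = 0.000636, adjusted p = 0.290 by edgeR). mt-Co1 had 16190.0, 16501 and 13013 CPM in Kcnip3 KO-5xFAD libraries, against 10617, 10148 and 10971 CPM in 5xFAD libraries. It did not overlap either, with a log2 fold change of 0.53 ± 0.15 (SE, adjusted p = 0.411). mt-Cytb had 9834, 11651 and 8394 CPM in Kcnip3 KO-5xFAD libraries, against 7204.5, 8347 and 7607 CPM in 5xFAD libraries, where the lowest of one group lay just above the highest of the other (log2 fold change 0.37, adjusted p = 0.439).

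Besides these 3, mt-Nd2 (0.47) and mt-Atp6 (0.54) were higher without overlap. The 5 of 10 mitochondrial members, and among nuclear ones only Ndufs1 of 83, stand beside 9.05% of all genes. mt-Nd1 (0.42), mt-Nd6 (0.40), mt-Nd4 (0.22) and mt-Co3 (0.35) overlapped. mt-Co2 had 118, 43.1 and 28.9 CPM in Kcnip3 KO-5xFAD libraries and 48.8, 47.1 and 51.9 CPM in 5xFAD libraries. Its fold change of 0.36 rested on Kcnip3 KO-5xFAD 1 and was -0.45 without that library.

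The mitochondrial to nuclear ratio was 2.59, 2.62 and 2.18 in Kcnip3 KO-5xFAD libraries and 1.79, 1.48 and 1.64 in 5xFAD libraries, without overlap. The mitochondrial share was 4.24%, 4.60% and 3.52% of counts in Kcnip3 KO-5xFAD libraries, all above the 5xFAD values near 2.96%. The nuclear share was 1.64%, 1.76% and 1.62% in Kcnip3 KO-5xFAD libraries, and 5xFAD 1 with 1.65% fell among them. Without Kcnip3 KO-5xFAD 2 and WT 3 the mitochondrial median was 0.30 with 10 of 10 positive, and the nuclear median -0.25.

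Of the nuclear genes, 4 were lower in every Kcnip3 KO-5xFAD library than in every 5xFAD library, where 7.29% of all genes were. They were the complex I subunits Ndufa2, Ndufa8 and Ndufb5 and the muscle form Cox6a2. Cox6a2 had 6.10, 5.78 and 6.63 CPM in Kcnip3 KO-5xFAD libraries, against 6.73, 13.2 and 11.6 CPM in 5xFAD libraries. Its log2 fold change was -0.77 ± 0.26 (SE, adjusted p = 0.433). Cox8b, at -1.06 ± 0.77 (SE), was the lowest, and its values followed the choroid plexus sums as given above.

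The 4 genes called in 5xFAD against WT had negative fold changes here with overlapping libraries. They were picked for high values in these same 5xFAD libraries, so their negative signs are not independent of that choice. Atp5e had 140.6, 159 and 131 CPM in Kcnip3 KO-5xFAD libraries, against 155, 229 and 177 CPM in 5xFAD libraries, a log2 fold change of -0.38 (adjusted p = 0.433). Uqcr11 had 211, 226 and 211 CPM in Kcnip3 KO-5xFAD libraries (-0.31, adjusted p = 0.453), Ndufv3 had 103, 101 and 95.03 CPM (-0.28, adjusted p = 0.530) and Cox7a2l had 187, 190.1 and 178 CPM (-0.17, adjusted p = 0.538). The nuclear result moved with 5xFAD 2: without it the nuclear median was -0.065, and with the length and GC trend taken out it was -0.078. The mitochondrial median was 0.51 without 5xFAD 2 and 0.26 with the trend taken out.

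Comparing Kcnip3 KO-5xFAD with Kcnip3 KO gives the transgene effect in the absence of Kcnip3. No member was called by edgeR, DESeq2, limma-voom or limma on log2 TPM. Over all genes edgeR called 0%, while DESeq2 called 111 higher and 24 lower. Without WT 3 and Kcnip3 KO-5xFAD 2, edgeR again called 0 members, but 208 genes higher and 1 lower of 16076. With all libraries 1 member, Cox7a2l, had an unadjusted p under 0.05 by edgeR, where 10.4% of all genes did. Cox7a2l had 187, 190.1 and 178 CPM in Kcnip3 KO-5xFAD libraries, against 140.0, 145 and 149.7 CPM in Kcnip3 KO libraries. The groups lay well apart, with a log2 fold change of 0.35 ± 0.09 (SE, unadjusted p = 0.00211, adjusted p = 0.251 by edgeR). Nuclear members had 64 positive fold changes of 83 (median 0.10), and 15 were higher without overlap, among them Ndufv3 (0.30) and Uqcr11 (0.24), where 8.37% of all genes were. Lower without overlap were 2 nuclear members, Sdha (-0.10) and Ndufc2 (-0.23), where 7.25% of all genes were. The nuclear median was -0.048 with the length and GC trend taken out, and 0.030 without Kcnip3 KO-5xFAD 2 and WT 3.

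For the mitochondrial genes this comparison had a median of 0.031, with 7 of 10 positive. mt-Nd5 had 2411, 2664 and 2021 CPM in Kcnip3 KO-5xFAD libraries and 2624, 2310.4 and 2525 CPM in Kcnip3 KO libraries, and the 2 groups overlapped. mt-Co1 had 16190.0, 16501 and 13013 CPM in Kcnip3 KO-5xFAD libraries and 16246, 12909 and 16453 CPM in Kcnip3 KO libraries, again with overlap. mt-Co2 gave the highest fold change, 0.70, which was -0.12 without Kcnip3 KO-5xFAD 1. Without Kcnip3 KO-5xFAD 2 and WT 3 the mitochondrial median was -0.090 with 1 of 10 positive. Cox7a1, at -0.43, was the lowest member.

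The difference between the transgene effects with and without Kcnip3 was tested as an interaction, positive where the effect was higher without Kcnip3. No member passed in edgeR, DESeq2, limma-voom or limma on log2 TPM, beside 0% of all genes by edgeR, and 3 nuclear members (Atp5e, Ndufc2 and Ndufb2) had an unadjusted p under 0.05, fewer than the 5.26% over all genes. Atp5e, at -0.49 ± 0.18 (SE, adjusted p = 0.853), had a log2 fold change of 0.51 with Kcnip3 intact. The interaction was positive for 10 of 10 mitochondrial genes (median 0.28) and negative for 74 of 83 nuclear ones (median -0.19). It uses the same 5xFAD and WT libraries as the comparisons above, and the members share libraries. These signs are therefore not a separate result. mt-Nd5 was at 0.34 ± 0.16 (SE) and mt-Co1 at 0.43 ± 0.21 (SE), both with an adjusted p of 0.853. The mitochondrial median of the interaction was 0.031 with the length and GC trend taken out. Without WT 3 and Kcnip3 KO-5xFAD 2 it was 0.21 with 8 of 10 positive, and the nuclear median was -0.21 with 3 of 83 positive. Without 5xFAD 2 the nuclear median of the interaction was -0.061. Cox7a2l, at -0.03, had nearly the same transgene effect in both backgrounds.

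Other lists of energy metabolism genes in 5xFAD against WT had medians closer to 0 than the nuclear subunits, a difference that was not tested. The electron carriers and coenzyme Q synthesis genes had 16 of 18 positive fold changes (median 0.20), the complex I assembly factors 13 of 17 (0.11), the assembly factors of the other complexes 25 of 36 (0.09) and glycolysis 13 of 16 (0.18). The tricarboxylic acid cycle genes had 11 of 18 positive (0.03), the carriers, porins and creatine kinases 10 of 13 (0.10) and the antioxidant enzymes 5 of 7 (0.18). Positive fold changes were 13 of 27 among genes of mitochondrial DNA maintenance, transcription and RNA handling (-0.05) and 5 of 13 among regulators of mitochondrial biogenesis (-0.05).

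From these lists 4 genes passed the threshold in 5xFAD against WT. Ucp2, an inner-membrane carrier abundant in microglia and macrophages, had 87.1, 96.7 and 108 CPM in 5xFAD libraries, against 38.7, 36.0 and 43.5 CPM in WT libraries, a log2 fold change of 1.30 ± 0.13 (SE, adjusted p = 0.00158). The 9 microglial markers summed to 1276 to 1721 CPM in 5xFAD libraries and to 372 to 676 CPM in WT libraries, and their part in the Ucp2 result was not tested. Cox20, which assists the assembly of complex IV, had 10.8, 8.79 and 10.8 CPM in 5xFAD libraries, against 7.12, 6.91 and 6.06 CPM in WT libraries (0.60 ± 0.16 SE, adjusted p = 0.0494). Hsd17b10, a subunit of the mitochondrial enzyme that trims transfer RNA precursors, had 43.4, 52.3 and 42.7 CPM in 5xFAD libraries, against 31.2, 35.9 and 33.5 CPM in WT libraries (0.46 ± 0.10 SE, adjusted p = 0.0362).

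Esrrg, an orphan nuclear receptor that activates energy metabolism genes, was the gene called lower. It had 4.45, 2.41 and 3.26 CPM in 5xFAD libraries, against 7.02, 6.59 and 8.46 CPM in WT libraries, without overlap, for a log2 fold change of -1.12 ± 0.23 (SE, adjusted p = 0.0292). In the absence of Kcnip3 it had 4.32, 4.22 and 3.81 CPM in Kcnip3 KO-5xFAD libraries, against 6.80, 9.06 and 8.86 CPM in Kcnip3 KO libraries (-0.99 ± 0.22 SE, adjusted p = 0.225). Its coactivator Ppargc1a, named after its values were seen, had 17.1, 9.50 and 10.1 CPM in 5xFAD libraries, against 24.5, 16.7 and 20.6 CPM in WT libraries (-0.75 ± 0.20 SE, adjusted p = 0.0523). Without WT 3 and Kcnip3 KO-5xFAD 2, only Ucp2 of these 5 genes was called (adjusted p = 5.14e-05), and Esrrg had an adjusted p of 0.097.

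Summed markers of other cells also differed between genotypes. Astrocyte markers summed to 4767 to 5212 CPM in 5xFAD libraries and 2774 to 3525 CPM in WT libraries. Only 3 of these 6 markers had a positive fold change, with a median log2 fold change of 0.13 and 0 called. Oligodendrocyte markers summed to 5912 to 8216 CPM in 5xFAD libraries and 3479 to 5786 CPM in WT libraries, with 7 of 7 positive. General neuronal markers summed to 5407 to 6124 CPM in 5xFAD libraries, against 6171 to 6473 CPM in WT libraries, the opposite order to the hippocampal neuron markers given above. Microglial markers summed to 453 to 1311 CPM in Kcnip3 KO-5xFAD libraries, the lowest being Kcnip3 KO-5xFAD 2, and to 370 to 428 CPM in Kcnip3 KO libraries. The part of these cells in the fold changes of the subunit genes was not tested.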

How the data were processed

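Total RNA from hippocampus was sequenced after a TruSeq mRNA library preparation, per the labels' protocols. The authors deposited raw read counts per gene and a log2 TPM table of 16120 genes. Per the submitters' processing notes, reads were handled on mm10 with HISAT2 2.1.0 and featureCounts, beside FastQC 0.11.9, edgeR 3.38.4 and R 4.2.1. The strand setting and the treatment of reads with several matches are not stated, so sense and antisense genes may share counts. Symbols and lengths came from GENCODE M21 (55144 of 55385 identifiers matched, and the rest held 0.00278% of counts).

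The deposited counts of all 12 libraries were fitted with edgeR 4.0.16 (R 4.3.3; TMM scaling, filterByExpr, robust quasi-likelihood test, Benjamini-Hochberg adjustment over 15905 genes, called at an adjusted p under 0.05). CPM values carry the TMM scaling, except those per 1000 bases, the means of mitochondrial genes and of their copies, and the limits of membership, which use plain library totals. TPM values are the deposited log2 values raised back. Alternatives were DESeq2 1.42.0, limma 3.58.1 with voom or on the deposited log2 TPM, other scalings and filters, a replicate block, a correction for length and GC content, and leaving out libraries. The fits were tested on data simulated for 5xFAD against WT. Of 1.5-fold, 2-fold and 4-fold changes, 25.4%, 65.7% and 92.4% were recovered, and 3.17% of 126 calls were false. With a length trend simulated in 1 library, 19.4% of 1.5-fold changes were recovered and 7.69% of 130 calls were false. With the length and GC correction added, 28.4% were recovered and 5.26% of 133 calls were false. Replicates of every group differed beyond sampling noise.

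Named genes were all measured mitochondrial members, all called members, per nuclear complex without a call the most abundant members, the subunit isoforms, the extreme fold changes of each comparison, and up to 4 called genes of each other list. The members and lists were chosen with earlier results of these data known.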

Additional observations from a re-analysis of the deposited data

How the results depend on the processing

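The same-numbered libraries of different groups did not pair (correlations of their deviations -0.31 to 0.24), so the replicate block is only an alternative. In 5xFAD against WT the 4 members called higher (304 of 15905 genes in all) became 31 with no filter on low counts (1136 of 31787), 7 with a stricter filter (368 of 12251), 21 with DESeq2 (667), 29 with the replicate block (632), 1 with the length and GC correction (72) and 2 with the replicate block and that correction (64). They became 0 with limma on log2 TPM (80 of 16120), with only the groups compared (264 of 15296), and, beside 146 to 203 genes in all, in each setting that excluded WT 3 and Kcnip3 KO-5xFAD 2 (alone, with Kcnip3 KO 3, with 5xFAD 2, or with the length and GC correction, the last 2 added after seeing the data). Leaving out 1 library gave 0 to 42, and 1 to 939 genes in all. The count called lower was 1 with library size only (265 genes in all), the stricter filter (349), limma on log2 TPM (158) and the replicate block (602). It was 2 with no filter (995) and DESeq2 (764). Leaving out 1 library gave 0 to 1 called lower, and 0 to 1178 genes in all. In Kcnip3 KO-5xFAD against 5xFAD, no filter gave 3 higher (200 of 31787 genes in all) and 1 lower (151), and DESeq2 1 higher (16). In Kcnip3 KO-5xFAD against Kcnip3 KO, no filter gave 1 higher (419). Excluding WT 3 and Kcnip3 KO-5xFAD 2, edgeR called 0 members in Kcnip3 KO against WT, beside 4 genes higher and 3 lower. That setting also gave 0 members in Kcnip3 KO-5xFAD against 5xFAD, beside 5 genes higher and 1 lower, and 0 for the interaction, beside 1 gene higher. The cause was not tested in any of these cases.

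The nuclear median in 5xFAD against WT was 0.16 with limma on log2 TPM, where the median of all genes was -0.13. It was 0.061 with the length and GC correction with or without the block, 0.17 to 0.41 without 1 library, 0.11 excluding 5xFAD 2 as well as WT 3 and Kcnip3 KO-5xFAD 2, and 0.040 excluding WT 3 and Kcnip3 KO-5xFAD 2 with the correction. The mitochondrial median stayed negative, -0.42 to -0.16, under all 28 alternatives. Excluding WT 3 and Kcnip3 KO-5xFAD 2 with the correction gave mitochondrial medians of 0.20 in Kcnip3 KO-5xFAD against 5xFAD, -0.22 in Kcnip3 KO-5xFAD against Kcnip3 KO and -0.014 for the interaction, and a nuclear median of -0.096 in Kcnip3 KO-5xFAD against Kcnip3 KO. The correction alone gave -0.048 for that nuclear median and 0.031 for the interaction, and with the replicate block added these were -0.051 and 0.013.

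Signs turned for members near 0 in 5xFAD against WT. With library size only, mt-Nd4 was -0.027 and Atp5g3 -0.0055. With limma on log2 TPM, mt-Nd4 was -0.099, Atp5g3 -0.076 and Sdhb -0.058. With the length and GC correction, Cox4i2 was -0.073, Atp5g2 -0.013, Atp5g3 -0.18 and Sdhb -0.19, and with the replicate block added they were -0.088, -0.013, -0.18 and -0.195, with Cox6b2 at -0.0032. Excluding WT 3, Kcnip3 KO-5xFAD 2 and 5xFAD 2, mt-Nd4 was -0.087, Cox4i2 -0.25, Atp5g3 -0.082 and Sdhb -0.085. Excluding WT 3 and Kcnip3 KO-5xFAD 2 with the correction, Cox4i2 was -0.14, Cox6b2 -0.14, Cox7a2 -0.018, Cox8a -0.0087, Atp5g3 -0.20 and Sdhb -0.16, and mt-Nd4 in Kcnip3 KO-5xFAD against 5xFAD was -0.11. Leaving out 1 library gave -0.071 to 0.12 for mt-Nd4, -0.13 to 0.68 for Cox4i2, -0.064 to 0.70 for Cox6b2, -0.035 to 0.16 for Atp5g3 and -0.079 to 0.21 for Sdhb. For mt-Co2 it gave -0.45 to 0.71 in Kcnip3 KO-5xFAD against 5xFAD and -0.12 to 1.04 against Kcnip3 KO. With 3 libraries a group and as few as 7664407 counts in a library, members of a few CPM such as Cox8b, Cox7a1 and Cox4i2 were among those with the widest errors.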
